A study of Mus musculus with 9 samples.

Results

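Neutrophils are short-lived granulocytes that are made in the bone marrow and reach tissues through the blood, and the healthy brain holds few of them. During their maturation they fill granules in a fixed order, in which myeloperoxidase and elastase belong to the first, or primary, granules. Camp (cathelicidin), Ngp (neutrophilic granule protein) and Ltf (lactoferrin) belong to the secondary granules, and Mmp9 to later ones. Cells that have left the marrow carry the chemokine receptor Cxcr2 and much Retnlg, a resistin-like protein, while the calcium-binding proteins S100a8 and S100a9 are abundant throughout.

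The neutrophils described here were found among live CD11b+ cells that were sorted by flow cytometry from the brains of female C57BL/6J mice, 5 months old, and profiled with droplet-based single-cell RNA-seq. CD11b, the product of Itgam, is carried by microglia and by neutrophils alike, so the sort kept both. The mice were untreated (Ctrl, 3 libraries of 1 brain each), fed PLX5622, an inhibitor of the receptor CSF1R that removes most microglia, at 1200 mg/kg of diet for 14 days (D0, 3 libraries of 2 pooled brains), or fed the same and then a control diet for 2 days (D2, 3 libraries of 2 pooled brains). The third D2 library, D2-3, was left out by the study and is given apart, in no group mean. Treatment therefore went together with the number of brains in a library, and these cannot be told apart. The brains, without cerebellum, were perfused before the sort to wash out blood. A library was the replicate.

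Of 36391 barcodes, 30463 were kept: those with 500 to 20000 unique molecular identifiers (UMIs, each the tag of 1 captured transcript), 200 or more genes and a mitochondrial share of 10% or less. A kept barcode was taken as a neutrophil where S100a8 and S100a9 together held at least 2% of its UMIs and where at least 2 of 9 genes (Retnlg, Cxcr2, Slpi, Camp, Ngp, Ltf, Lcn2, Mmp8 and Mmp9) had a UMI. This gave 1402 neutrophils, 1152 of them in the 8 libraries without D2-3. The neutrophils were thus chosen by the measured levels of these 11 genes, whose levels against other cells are a description and were not tested. The S100a8 and S100a9 share had a median of 22.5% in neutrophils, 94.9% of all kept barcodes were below 0.5%, and 115 barcodes lay between 0.5% and 2%. Just inside the limit, 16 neutrophils had a share of 2% to 2.5%, and just outside it 34 barcodes had 1.5% to 2%, of which 25 met the second condition. Of the 9 genes a neutrophil carried a median of 6.

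The labels were checked against genes outside the rule. Besides the genes of the rule, the genes with the largest ratio of neutrophils over all other kept barcodes were Wfdc21, G0s2, Anxa1, Hp and S100a11, and Ly6g, the surface antigen by which mouse neutrophils are commonly sorted, was at 748 ± 366 CPM (UMIs of the gene per 1000000 UMIs summed over the barcodes; SD, n = 8 libraries) in neutrophils against 0.175 ± 0.275 in other barcodes. UMIs count 1 end of each transcript, so levels of different genes were not divided by length. For the genes of the rule, whose detection the choice of barcodes raised, the shares are a description and no check of the label. Retnlg had a UMI in 93.7% of neutrophils and in 2.62% of microglia-marked barcodes, which should lack it, and Cxcr2 in 79.7% against 0.409%, although microglia-marked barcodes were deeper (median of 6912 UMIs against 3387.5). Camp had a UMI in 41.4% of neutrophils against 3.19%, Ngp in 47.1% against 3.30%, and Ltf in 35.1% against 0.771%. In monocyte-marked barcodes Retnlg had a UMI in 6.57% and Cxcr2 in 0.487%, but Slpi in 52.1% and Mmp8 in 39.4%. Cd177, outside the rule, was found in 41.1% of them and in 44.1% of neutrophils. Markers of other cell types, which the rule did not use, were low: the 5 early B cell markers were at 0 in all 8 libraries, the 8 erythroid markers summed to 1.89 CPM, and the 9 monocyte markers to 763 CPM, most of it Ly6c2 at 549 CPM, a gene that neutrophil precursors also express. Microglia markers were the exception and are described below.

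The genes that split the neutrophils are placed as follows. In GRCm38, Camp (chr9:109847379-109849617), Ngp (chr9:110419747-110423012) and Ltf (chr9:111019271-111042767) are protein-coding genes of chromosome 9 that do not adjoin each other, whereas Retnlg (chr16:48872621-48874496) and Cxcr2 (chr1:74153989-74161246) are protein-coding genes of other chromosomes. S100a8 (chr3:90668978-90670035) and S100a9 (chr3:90692632-90695721) are both on chromosome 3. Because Camp, Ngp and Ltf moved together between libraries, and because Cebpe, a C/EBP transcription factor of the granule stage, was high in the same barcodes (below), the bases before the start of each gene were searched for a C/EBP-type motif, TTNNGCAA on either strand (on the other strand it reads TTGCNNAA). The 250 bases before the RefSeq start (GRCm38.p6) held 2 matches for Ngp, 1 for Ltf and 1 for Retnlg, and none for Camp and Cxcr2. Of all 32851 promoters of that length, 9.56% held a match. The matches began 138 and 11 bases before the start of Ngp, 75 before that of Ltf and 246 before that of Retnlg. A match is a description of the letters and not a shown binding site. The upstream sequences follow 5′ to 3′ on the strand of the gene, without bases that the GENCODE annotation puts inside the gene, and with matches in capitals; the second match of Ngp falls in the part left out. They are those of Camp (chr9:109849618-109849706, minus strand), Ngp (chr9:110419558-110419746, plus strand), Ltf (chr9:111019042-111019270, plus strand), Retnlg (chr16:48872358-48872607, plus strand) and Cxcr2 (chr1:74153744-74153988, plus strand), the 3 immature and the 2 mature genes on which the results turn.
Camp: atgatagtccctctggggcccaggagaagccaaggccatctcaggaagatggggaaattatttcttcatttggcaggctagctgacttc
Ngp: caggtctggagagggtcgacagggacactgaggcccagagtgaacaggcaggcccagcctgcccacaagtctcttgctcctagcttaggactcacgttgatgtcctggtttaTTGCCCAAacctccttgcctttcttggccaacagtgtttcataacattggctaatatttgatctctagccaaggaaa
Ltf: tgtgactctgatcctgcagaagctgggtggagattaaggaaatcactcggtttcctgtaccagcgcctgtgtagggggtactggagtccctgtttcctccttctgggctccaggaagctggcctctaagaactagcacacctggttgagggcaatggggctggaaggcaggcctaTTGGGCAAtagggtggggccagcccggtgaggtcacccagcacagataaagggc
Retnlg: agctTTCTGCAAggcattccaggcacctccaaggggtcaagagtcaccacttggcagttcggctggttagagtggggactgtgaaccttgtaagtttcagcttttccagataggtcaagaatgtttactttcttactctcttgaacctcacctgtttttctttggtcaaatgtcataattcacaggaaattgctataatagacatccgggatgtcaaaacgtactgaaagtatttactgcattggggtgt
Cxcr2: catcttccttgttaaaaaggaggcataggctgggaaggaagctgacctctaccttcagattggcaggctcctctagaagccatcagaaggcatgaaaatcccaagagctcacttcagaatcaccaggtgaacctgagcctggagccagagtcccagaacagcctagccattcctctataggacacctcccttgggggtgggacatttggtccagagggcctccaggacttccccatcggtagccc

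Neutrophils made up a small and very uneven part of the sorted cells. In Ctrl they were 0.305%, 3.14% and 0.865% of kept barcodes (13 of 4262, 81 of 2577 and 32 of 3699). In D0 they were 2.48%, 10.3% and 6.41% (103 of 4147, 512 of 4980 and 169 of 2637). In D2 they were 2.19% and 6.45% (86 of 3935 and 156 of 2418). The highest Ctrl library, Ctrl-2, lay above the lowest library of D0 and of D2, so the groups overlapped. The mean share was 1.44 ± 1.503% in Ctrl (SD, n = 3), 6.39 ± 3.90% in D0 (n = 3) and 4.32 ± 3.02% in D2 (n = 2). The differences from Ctrl were 4.95 percentage points in D0 and 2.88 in D2, with p = 0.2 and 0.3 in two-sided exact permutation tests (0.45 for both after Benjamini-Hochberg adjustment over 3 comparisons), and D2 was 2.07 points below D0 (p = 0.5). The smallest p these tests allow is 0.1. The D0 difference was 3.01 points without D0-2, and the D2 difference was 0.748 without D2-2, 5.01 without D2-1 and 6.05 with D2-3. With 1 library left out, D2 against D0 ranged from -4.21 to 0.0604 points, and its direction also turned with D2-3. D2-3 had 13.8% (250 of 1808), more than any other library.

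The denominator of these shares is mostly microglia, which the drug removes, so that more neutrophils and fewer microglia cannot be told apart in them. For each 100 microglia-marked barcodes (at least 5 of 10 microglia markers with a UMI) there were 0.318, 3.45 and 0.906 neutrophils in Ctrl, 2.83, 12.4 and 8.24 in D0 and 2.53 and 8.39 in D2. Among blood-type leukocytes alone (neutrophil, monocyte-marked and lymphoid-marked barcodes), neutrophils were 61.9%, 61.4% and 66.7% in Ctrl (13 of 21, 81 of 132 and 32 of 48). The shares were 79.8%, 81.8% and 69.3% in D0 (103 of 129, 512 of 626 and 169 of 244). They were 65.6% and 68.1% in D2 (86 of 131 and 156 of 229). The D0 libraries were all above the Ctrl and D2 libraries, but D0-3 (69.3%) lay close to D2-2 (68.1%) and Ctrl-3 (66.7%). No intervals were computed for these shares. The D0 mean was 13.7 points above that of Ctrl, with the smallest p that 3 libraries against 3 can give (p = 0.1, two-sided exact permutation test, 0.3 after adjustment), and D2 lay 10.1 points below D0 (p = 0.2). Monocyte-marked barcodes ranged from 0.141% to 1.203% of kept barcodes in Ctrl, from 0.434% to 1.93% in D0, and were 0.712% and 2.32% in D2. D2-3 had 64.6% neutrophils among leukocytes, within the range of the other D2 and Ctrl libraries, and 6.53% monocyte-marked barcodes.

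**Figure D1:**
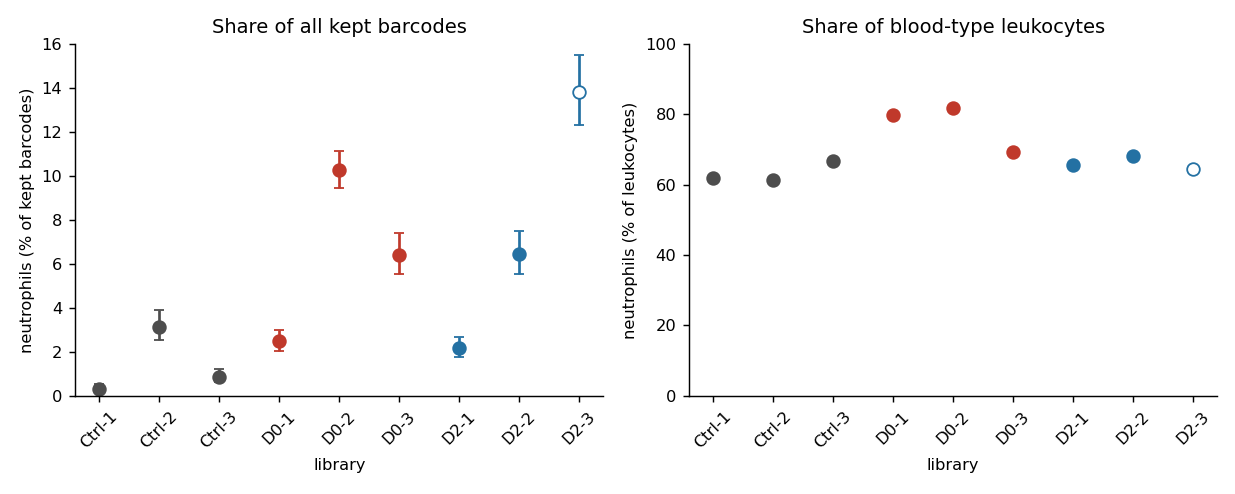
Neutrophils in each library as a percent of kept barcodes (left, bars are 95% Wilson intervals for counting error) and as a percent of neutrophil, monocyte-marked and lymphoid-marked barcodes together (right). Grey points are Ctrl, red D0 and blue D2, with D2-3 open. On the left Ctrl-2 (3.14%) overlaps D0-1 (2.48%). On the right, where no intervals are drawn, the 3 D0 libraries lie above the other libraries, D0-3 (69.3%) close to D2-2 (68.1%).

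Mature and immature genes were then read within the neutrophils. Retnlg and Cxcr2 were found at a substantial level in every library, whereas Camp, Ngp and Ltf went from nothing to several percent of all UMIs. The summed level of Retnlg was 28871, 7391 and 11706 CPM in Ctrl, 11999, 15908 and 23197 CPM in D0, 16968 and 16051 CPM in D2, and 22686 CPM in D2-3. The highest and the lowest library were both Ctrl. Cxcr2 was at 1017, 807 and 318 CPM in Ctrl, 932, 362 and 717 CPM in D0, 427 and 486 CPM in D2, and 673 CPM in D2-3. Camp was at 8312, 0 and 26445 CPM in Ctrl, 15526, 32768 and 12537 CPM in D0, 32174 and 32869 CPM in D2, and 9997 CPM in D2-3. Ngp followed it, with 9041, 0 and 28925 CPM in Ctrl, 17357, 35931 and 14893 CPM in D0, 38493 and 44415 CPM in D2, and 11555 CPM in D2-3. Ltf was at 2649, 0 and 8098 CPM in Ctrl, 3919, 8160 and 3675 CPM in D0, 8945 and 10649 CPM in D2, and 2929 CPM in D2-3. Both D2 libraries were above the Ctrl libraries for Camp, Ngp and Ltf, while D0 overlapped with Ctrl for all 5 genes. Ctrl-2 had no UMI of Camp, Ngp or Ltf among the 358296 UMIs of its 81 neutrophils, and none in its other kept barcodes either.

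**Figure D2:**
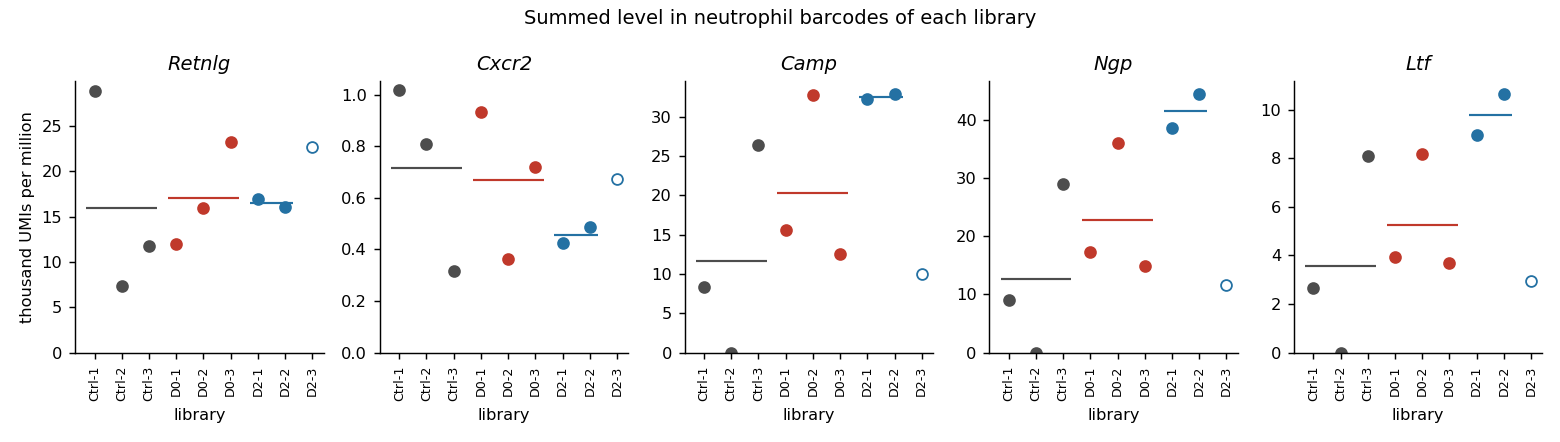
Summed level of 2 mature (Retnlg, Cxcr2) and 3 immature genes (Camp, Ngp, Ltf) in the neutrophils of each library, in units of 1000 CPM. Points are libraries (grey Ctrl, red D0, blue D2, open D2-3) and lines are group means without D2-3; Camp, Ngp and Ltf are at 0 in Ctrl-2 and at similar high levels in D2-1 and D2-2.

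To compare conditions without the genes that took part in the choice, barcodes were also taken by their S100a8 and S100a9 share alone (1439 barcodes, 37 more than with both conditions), and a barcode was called immature-type where Camp, Ngp and Ltf together held at least 0.2% of its UMIs. In this set the immature-type share was 23.1% (3 of 13), 0% (0 of 82) and 46.9% (15 of 32) in Ctrl, 15.3%, 52.5% and 23.1% in D0, and 54.7% and 56.4% in D2. D2-3 had 28.5%. The 2 D2 libraries were above all other libraries. The means were 23.3 ± 23.4% in Ctrl (SD, n = 3), 30.3 ± 19.6% in D0 (n = 3) and 55.5 ± 1.24% in D2 (n = 2). D2 was 32.2 points above Ctrl and 25.2 points above D0 (p = 0.2 for each, two-sided exact permutation test, 0.3 after adjustment over 3 comparisons), and D0 was 6.99 points above Ctrl (p = 0.8). With D2-3 in the D2 group the difference from Ctrl was 23.2 points. The 0 of Ctrl-2 has an upper 95% Wilson limit of 4.48%; like all intervals here it covers counting error only. In the summed counts of the same barcodes, none of the 9 genes was called between conditions by edgeR's quasi-likelihood test with Benjamini-Hochberg adjustment over all 4386 genes tested, of which 0% were called in any comparison (199, 607 and 134 genes had an unadjusted p under 0.05 for D0 against Ctrl, D2 against Ctrl and D2 against D0, and DESeq2 called 1, 16 and 0 genes). For D2 against Ctrl the log2 difference was 1.66 (SE 1.57, adjusted p = 0.645) for Camp, 1.89 (SE 1.59, adjusted p = 0.602) for Ngp and 0.38 (SE 0.60, adjusted p = 0.808) for Retnlg in that edgeR fit.

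Among all 1402 neutrophils, 556 (39.7%) were immature-type, and 711 had no UMI of Camp, Ngp or Ltf. The 0.2% limit cut few barcodes: 29 neutrophils lay between 0.1% and 0.2%, and 33 between 0.2% and 0.4%. Immature-type is a range of a measured share and not a separate cell type. Of the 556, 476 carried all 3 genes. Of the 2 mature genes Retnlg held most UMIs in every library, as 2648 against 289 of Cxcr2 in Ctrl-2 and 50091 against 1139 in D0-2. The mature share therefore describes mainly Retnlg, and it did not exclude immature genes. With the same limit of 0.2% for Retnlg and Cxcr2 together, 403 neutrophils had both immature and mature genes, 153 only immature, 754 only mature and 92 neither. The median share of Retnlg and Cxcr2 was 1.56% in immature-type neutrophils against 0.807% in the others over all libraries, but the gap differed between libraries. It was 0.961% against 0.956% in D0-2, which held 270 of the 556, 1.37% against 1.35% in D2-1, and 3.28% against 0.803% in D0-3. As a level summed over barcodes and scaled to all UMIs, Retnlg was higher in immature-type neutrophils in 3 of 7 libraries and lower in 4 (median log2 ratio of -0.12), whereas it was higher in 6 of 7 (0.54) when scaled to UMIs outside the genes of the rule. Cxcr2 was lower in 7 of 7 on both scales (-2.02 and -1.42). Neutrophils with only immature genes were 18.8% of neutrophils in Ctrl-3, 18.6% in D0-2, 15.1% and 17.3% in D2-1 and D2-2, and under 4% in the other 5 libraries. Those with only mature genes were 80.2% in Ctrl-2, 76.9% in Ctrl-1, 75.7% in D0-1, 70.4% in D0-3, 60.4% in D2-3 and between 40.4% and 43.0% in the remaining 4.

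**Figure D3:**
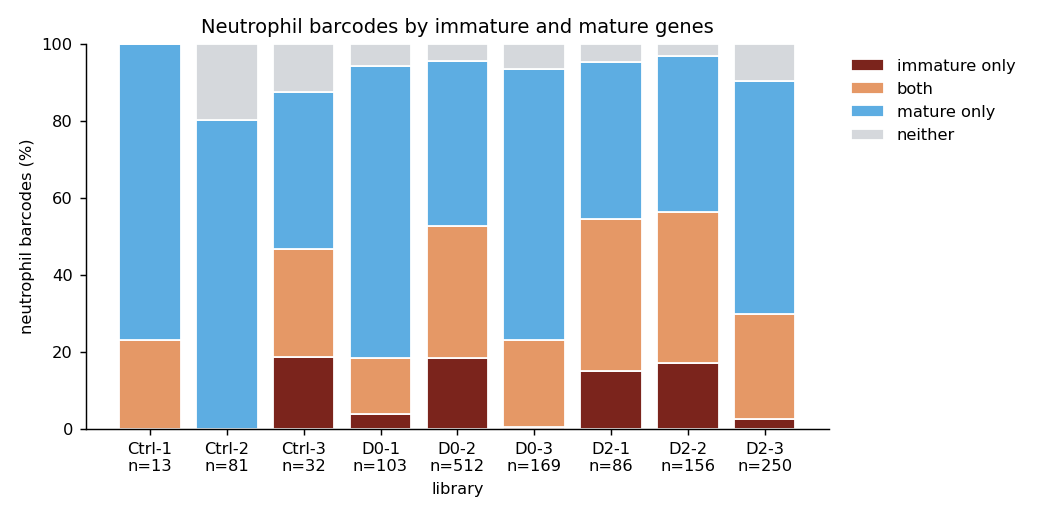
Neutrophils of each library by whether Camp, Ngp and Ltf together (immature) and Retnlg and Cxcr2 together (mature) held at least 0.2% of a barcode's UMIs, in percent of the library's neutrophils, with their number under each bar. Most of the mature UMIs are of Retnlg. Ctrl-2 has no barcode with immature genes, and D2-1, D2-2, D0-2 and Ctrl-3 have the largest shares of barcodes with immature genes only.

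Immature-type and other neutrophils were compared within the 7 libraries that had at least 10 of each, Ctrl-3, D0-1 to D0-3 and D2-1 to D2-3. Levels were scaled to UMIs outside the 11 genes of the rule, since those alone take up much of a neutrophil's RNA. The genes of the rule held 43.0% to 48.3% of UMIs in immature-type and 13.2% to 21.5% in other neutrophils. As the split was made on the same barcodes, ratios are given with no test. Of 1055 genes with at least 200 CPM, 29.6% were higher in immature-type neutrophils in all 7 libraries and 30% were lower in all 7, and the median log2 ratio was -0.05. Scaled to all UMIs, an alternative chosen after seeing the data, the same genes had a median of -0.63, with 14.8% higher and 53.3% lower in all 7; the ratios below are on the first scale unless stated. Against this background, 16 of 17 genes of the secondary and tertiary granule list were higher in all 7 libraries, with a median log2 ratio of 2.94 (15 of 17 and 2.35 scaled to all UMIs). Chil3, a chitinase-like lectin, was at 9868 ± 3594 CPM in immature-type and 119 ± 247 CPM in other neutrophils (SD, n = 7), with a median log2 ratio of 10.04 over the libraries (4.08 to 10.41). The other neutrophils had no UMI of Chil3 in 4 of the 7 libraries, where the pseudocount sets the ratio. Serpinb1a, an inhibitor of neutrophil serine proteases, had a median log2 ratio of 6.41 (at 0 in other neutrophils in 2 libraries), and Cebpe, which drives granule genes, one of 4.73 (540 ± 201 against 18.9 ± 20.2 CPM). Lyz2, the lysozyme of myeloid cells, was at 32694 ± 3737 against 6054 ± 1734 CPM. Olfm4, olfactomedin 4, was the member that was not higher in all 7 libraries, being listed at 0 in Ctrl-3. Of the genes of the rule that were not used for the split, Lcn2 had a log2 ratio of 3.94 and Mmp8 one of 2.42, whereas Slpi was lower (-0.87).

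For the genes of the oxidative burst the count depended on the scale. Of the 6 subunits of the NADPH oxidase 5 were higher in immature-type neutrophils in all 7 libraries, led by Cybb, its membrane subunit (2986 ± 755 against 151 ± 75.2 CPM), while scaled to all UMIs 3 were higher, Cybb among them, and 1 was lower. Of 10 measured genes of glycolysis and hypoxia 7 were higher in all 7 libraries, among them Ldha, lactate dehydrogenase A (log2 ratio of 2.03), and Hif1a was lower; scaled to all UMIs 4 were higher and 2 lower. Ly6c2 was also higher (1740 ± 320 against 199 ± 75.2 CPM).

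Genes of mature and activated neutrophils went the other way. Of 20 measured genes of the mature neutrophil list 18 were lower in all 7 libraries (median log2 ratio of -1.53), and Fpr2, a formyl peptide receptor, was higher. Csf3r, the receptor of the growth factor G-CSF, was at 260 ± 88.3 CPM in immature-type and 1993 ± 259 CPM in other neutrophils. Ccl6, a chemokine, had a log2 ratio of -3.35. Of 15 genes of the activation and ageing list 12 were lower in all 7 libraries (median log2 ratio of -2.10) and Osm was higher, though in 6 of 7 when scaled to all UMIs. Il1b, the cytokine interleukin 1 beta, was at 1698 ± 1613 against 13158 ± 2926 CPM, Cxcl2, a chemokine that attracts neutrophils, at 302 ± 277 against 2152 ± 832 CPM, and Cxcr4, the receptor that holds neutrophils in the marrow and rises again with age, at 103 ± 45.9 against 714 ± 280 CPM. All 4 measured genes of the survival and death list were lower, Mcl1 with a log2 ratio of -1.53. Of 7 interferon-stimulated genes 3 were lower in all 7 libraries, among them Isg15 (log2 ratio of -2.71), a share not far above the 30% of all genes, and of 13 immediate-early and stress genes 8, among them Atf3 (-3.64) and Junb (-1.90), while Fos was higher in 6 of 7 (4 of 7 scaled to all UMIs). Adhesion and trafficking genes were mixed: Itgam, which encodes the CD11b of the sort, Cd47 and Ltb4r1, a leukotriene receptor, were higher, and Itgal, Itga4, Selplg, Cd44 and Ccr1 were lower, of 12 measured. Of 5 growth factor receptors 4 were lower, and of 7 pattern recognition genes 1 was higher and 2 were lower. Scaled to all UMIs, the genes lower in all 7 libraries were 13 of the activation and ageing list, 4 interferon-stimulated, 10 immediate-early and stress, 8 adhesion and trafficking and 5 pattern recognition genes. The lowest ratios of all belonged to Wfdc17 (-6.50), Pla2g7 (-6.24) and Fgl2 (-5.46), which immature-type neutrophils lacked in 2, 3 and 2 libraries. The microglia markers were lower too in immature-type neutrophils, 9 of 9 in all 7 libraries with a median log2 ratio of -1.62. Immature-type neutrophils were deeper, with median UMIs between 5199 and 9692 in these libraries against 1808 to 3135 in the others, and the part of depth in these ratios was not tested.

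**Figure D4:**
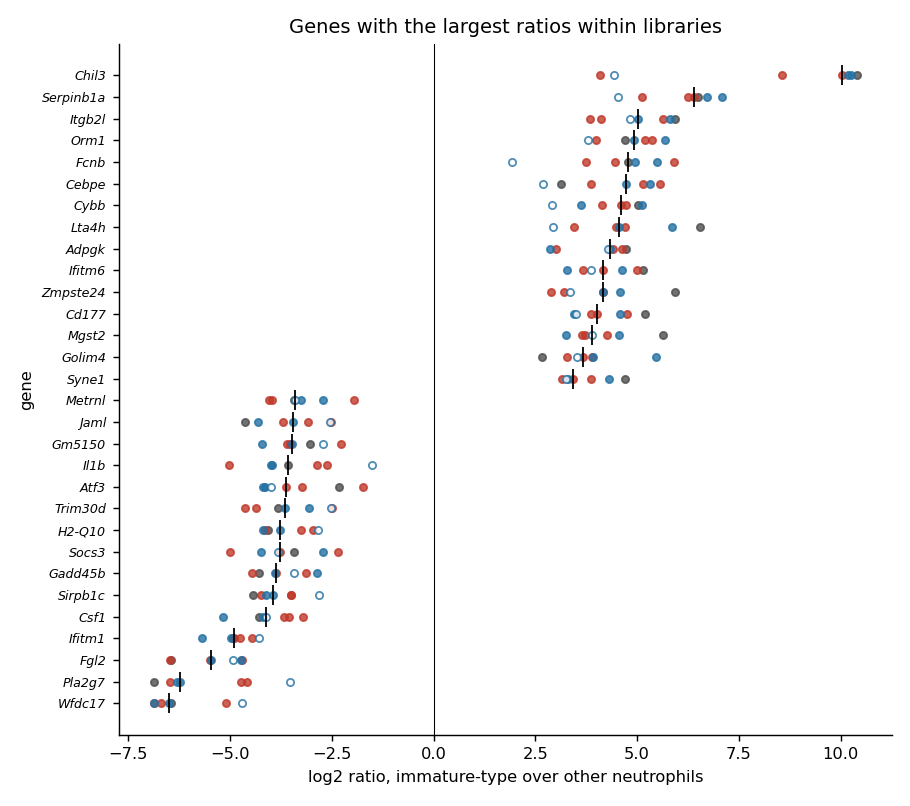
Log2 ratio of immature-type over other neutrophils for the 15 genes with the highest and the 15 with the lowest median ratio among genes with at least 200 CPM outside the genes of the rule. Each point is 1 of 7 libraries (grey Ctrl-3, red D0, blue D2, open D2-3) and the black tick is the median; Chil3 and Serpinb1a lead the upper set, Wfdc17 and Pla2g7 the lower.

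Cell cycle genes were most frequent in the neutrophils with only immature genes when all libraries were pooled. At least 3 of 12 cell cycle genes had a UMI in 43.8% of the neutrophils with only immature genes (67 of 153), 3.97% of those with both, 2.65% of those with only mature genes and 10.9% of those with neither, against 19.4% of microglia-marked barcodes. Of these 67, 52 were in D0-2 (of 95 neutrophils with only immature genes), 7 in D2-1 (of 13) and 3 in D2-2 (of 27). The others were 2 in D0-1 (of 4), 2 in Ctrl-3 (of 6) and 1 in D2-3 (of 7), while D0-3 had 0 of 1. In the wider immature-type set, which adds the neutrophils with both, D0-2 held 63 of the 83 with at least 3 such genes (of 270, against 9 of 242 others). In D0-3 none of 39 immature-type neutrophils and 2 of 130 others had them, and in D2-3 2 of 75 and 15 of 175. The first of these states was also the deepest (median of 11634 UMIs against 7863, 2762 and 2430). After thinning each barcode to 1000 UMIs, which left out 16, 21, 25 and 2 barcodes, at least 2 cell cycle genes remained in 38.7%, 2.88%, 2.61% and 7.78%. Primary granule genes were rarer still, with at least 2 of 6 such genes in 21 of the 153 neutrophils with only immature genes, 1 of the 92 with neither and none of the others; 17 of the 21 were in D0-2, 2 in D0-1 and 1 each in D2-1 and D2-2. By library, neutrophils with 3 or more cell cycle genes numbered 72 in D0-2, 17 in D2-3, 10 in D2-1 and at most 4 in each of the other 6.

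The upper limit of 20000 UMIs took out a part of this population. Above it, 94 further barcodes met the neutrophil rule, 65 of them in D0-2, 10 in D2-3, 9 in D2-2, 6 in D0-3, 2 in Ctrl-2 and 1 each in Ctrl-3 and D0-1. They had a median of 27144.5 UMIs and of 11 of the 12 cell cycle genes, 60.6% carried at least 2 primary granule genes, and Camp, Ngp and Ltf held a median of 11.02% of their UMIs. At least 3 cell cycle genes were found in 96.8% of them, against 81.4% of the 3883 other barcodes above the limit, so that depth moves with this share; after thinning to 1000 UMIs, 77.7% had at least 2. Microglia markers held a median of 0.0402% of their UMIs, but at least 1% in 25 of the 94, against 76 of the 1402 neutrophils. These 25 were 14 of 65 in D0-2, 4 of 10 in D2-3, 3 of 6 in D0-3 and 2 of 2 in Ctrl-2. D2-2 had 1 of 9 and Ctrl-3 its only 1. The part of barcodes that hold a neutrophil together with another cell was not tested. The 94 barcodes entered no other value here unless the limit was lifted.

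**Figure D5:**
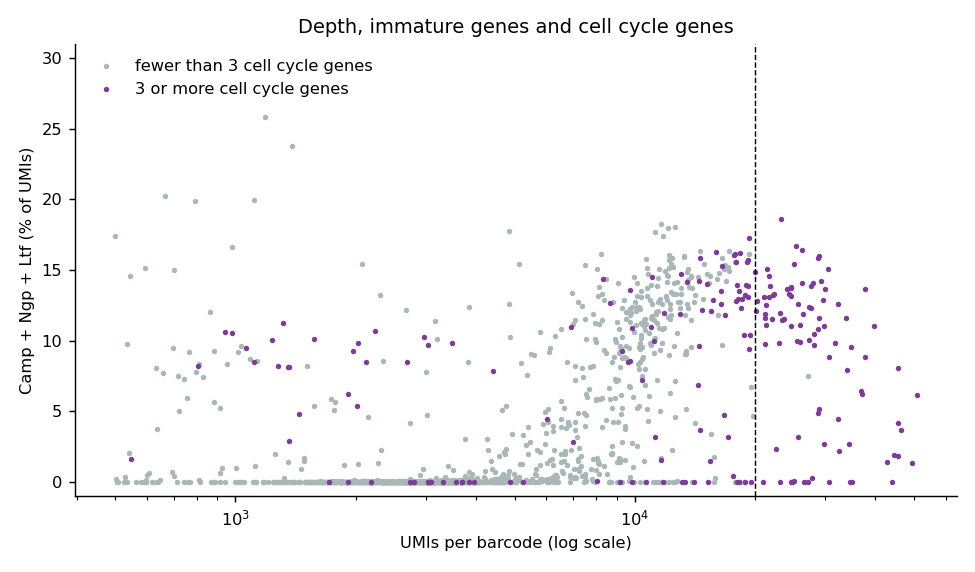
Share of Camp, Ngp and Ltf in a barcode's UMIs against its UMIs (log scale) for the 1402 neutrophils and the 94 barcodes over 20000 UMIs (right of the dashed line) that met the same rule. Purple points have a UMI of at least 3 of 12 cell cycle genes; they gather at high depth and high immature share and make up 96.8% of the points right of the line.

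Gene levels in neutrophils were then compared between conditions, in UMIs summed per library over the 7 libraries with at least 20 neutrophils (without Ctrl-1, which had 13, and without D2-3). Few genes passed. With edgeR's quasi-likelihood test and Benjamini-Hochberg adjustment over 4403 genes, 2 genes (0.0454%) were called for D0 against Ctrl, 1 higher (0.0227%) and 1 lower (0.0227%), 4 (0.0908%) for D2 against Ctrl, 1 higher (0.0227%) and 3 lower (0.0681%), and 0 (0%) for D2 against D0, where 188 genes had an unadjusted p under 0.05 and DESeq2 also called 0. Olfm4, a secondary granule protein that marks a subset of neutrophils, rose in both comparisons. Its level was 16.7 and 0 CPM in Ctrl-2 and Ctrl-3, 206, 199 and 253 CPM in D0, and 424 and 486 CPM in D2. The log2 difference was 4.69 (SE 0.57, adjusted p = 0.0269, edgeR) in D0 and 5.82 (SE 0.59, adjusted p = 0.00875) in D2. The groups did not overlap, but Ctrl-1, whose 13 neutrophils were too few for the fit, had 422 CPM, all of it 22 UMIs in 1 barcode, and with Ctrl-1 the differences were 1.67 (adjusted p = 0.878) and 2.80 (adjusted p = 0.320, edgeR). Both Ctrl libraries of the fit were processed with another version of Cell Ranger than the D0 and D2 libraries, so the version and Ctrl cannot be told apart in it; with Ctrl-1 and the version as a term the differences were -0.65 and 0.48 (adjusted p = 0.717 and 0.773, edgeR). Without Ctrl-2 the only Ctrl library is at 0, and the fitted differences, 10.65 and 11.77, depend on the prior count. D2-3 had 213 CPM. Olfm4 was found in few neutrophils, 3 of 81 in Ctrl-2, 0 of 32 in Ctrl-3 (which allows a share of barcodes with a UMI of up to 9.38% by a floor of 3 counts, with an upper 95% Wilson limit of 10.7%), 3 of 103, 27 of 512 and 15 of 169 in D0, and 16 of 86 and 13 of 156 in D2. In Ctrl-2, Ctrl-3 and D0-1 this share did not exceed that of microglia-marked barcodes (4.13%, 3.91% and 3.74%), which should lack the gene. The 2 calls of D0 became 0 when Ctrl-2, any of the 3 D0 libraries or D2-2 was left out and 66 without Ctrl-3, and the 4 calls of D2 became 0 without D2-2, 1 without Ctrl-2, 2 without D2-1 and 342 without Ctrl-3. Both counts were 0 with the replicate number as a block.

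The genes that fell are expressed by microglia. Crybb1, a crystallin, was at 251 and 120 CPM in Ctrl-2 and Ctrl-3 and between 5.04 and 16.6 CPM in D0, a log2 difference of -3.57 (SE 0.44, adjusted p = 0.0269, edgeR), and at 7.15 and 4.11 CPM in D2 (-4.77, SE 0.60, adjusted p = 0.0266). P2ry12, the purinergic receptor that marks resting microglia, was at 943 and 290 CPM in these Ctrl libraries and at 28.6 and 16.4 CPM in D2 (-4.45, SE 0.59, adjusted p = 0.0266, edgeR). Ltc4s, leukotriene C4 synthase, was at 226 and 104 CPM and at 9.53 and 8.22 CPM (-3.86, SE 0.52, adjusted p = 0.0266, edgeR). Ctrl-1, which was not in the fit, had 19.2 CPM of Crybb1 and was at 0 for P2ry12 and Ltc4s. With Ctrl-1 none of these genes was called (adjusted p = 0.480 for Crybb1 in D0 and 0.211, 0.220 and 0.214 for Crybb1, P2ry12 and Ltc4s in D2, edgeR), and with the Cell Ranger version as a further term the D2 differences of P2ry12 (7.08) and Ltc4s (5.82) turned. In microglia-marked barcodes of Ctrl the same genes had 528 ± 92.6 CPM (Crybb1), 2690 ± 345 CPM (P2ry12) and 732 ± 82.8 CPM (Ltc4s) (SD, n = 3). The 10 microglia markers, none of which was at 0 in every library, summed to 941, 17879 and 6110 CPM in neutrophils of Ctrl, 5304, 2486 and 1868 CPM in D0, 2936 and 1215 CPM in D2 and 1000 CPM in D2-3. Neutrophils with at least 1% microglia markers were 21.0% in Ctrl-2 and 21.9% in Ctrl-3 and at most 10.7% in any other library. Without these barcodes no gene was called in either comparison with Ctrl (230 and 594 of 3896 genes had an unadjusted p under 0.05; Crybb1 and Ltc4s were then too low to be tested). Barcodes that hold a neutrophil together with another cell were not removed, and their part in these differences was not tested.

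By list, no member other than Olfm4 and P2ry12 was called in any comparison, and the lists are given by their medians. Over all 4392 genes tested outside the rule the median log2 difference was 0.03 for D0 and 0.02 for D2 against Ctrl, with 2317 and 2264 genes above 0 and 2 and 4 called. The 17 genes of the secondary and tertiary granule list had medians of 0.70 and 1.197, with 16 and 17 of them above 0 and 1 called in each. Ctrl-2 was below the D0 mean and the D2 mean for all 17. Ctrl-3 was above the D0 mean for 11 of the 17, so the D0 difference of this fit rests on Ctrl-2. For D2, Ctrl-3 was above the mean for 6 of the 17. Ctrl-1, which was not in the fit, was above the D0 mean for 6 and above the D2 mean for 0. The 21 genes of the mature neutrophil list had medians of 0.05 and -0.45, and the 20 tested genes of the activation and ageing list -0.38 and -0.89. The 9 tested cell cycle genes had medians of 2.42 and 3.52, all above 0 and none called. They were uneven within the groups: Mki67, a marker of dividing cells, was at 0 and 32.9 CPM in Ctrl-2 and Ctrl-3, at 63.3, 71.8 and 13.9 CPM in D0, and at 305 and 6.16 CPM in D2. Top2a, a topoisomerase of dividing cells, was at 0 and 27.4 CPM in these Ctrl libraries, at 59.9, 69.9 and 1.26 CPM in D0, and at 210 and 2.05 CPM in D2. For both genes D0-3 and D2-2 lay below Ctrl-3, so their higher level in D2 rests on D2-1. The part of D2-1 in the median of the whole list was not tested. The 18 immediate-early and stress genes had medians of -0.33 and -1.11 and the 6 subunits of the NADPH oxidase 0.17 and 0.47, none called. The 10 microglia markers had medians of -1.63 and -2.27, none called in D0 and 1 in D2. D0 and D2 share their control libraries, so these values are not independent. Between D2 and D0 the secondary and tertiary granule list had a median of 0.52, with 17 of 17 above 0. The mature neutrophil list then had one of -0.83, with 20 of 21 below 0. Over all genes this median was -0.005, and no gene was called. Among the most abundant members, Lyz2 was at 3575 and 14591 CPM in the Ctrl libraries of the fit (Ctrl-2 and Ctrl-3) and at 13618 and 17346 CPM in D2 (adjusted p = 0.536, edgeR). Over all 3 Ctrl, 3 D0 and 2 D2 libraries, Csf3r was at 1379 ± 770, 876 ± 411 and 411 ± 22.5 CPM, and Il1b at 6520 ± 3797, 6358 ± 3073 and 2692 ± 40.7 CPM.

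The change from Ctrl to D0 was also set against that of microglia-marked barcodes of the same libraries, with an interaction term in edgeR over the 8 libraries. No minimum of barcodes was set here, so Ctrl-1 with its 13 neutrophils was included. Of 12447 genes 4 (0.0321%) differed, all with a smaller change in neutrophils. Both classes came from the same libraries, but this fit took the sums of the 2 classes as independent samples. With the library as a block 83 genes differed, 66 of them with a lower and 17 with a higher log2 change in neutrophils. Whether the 4 genes are among these 83 is not given here, and the values below are from the fit without a block. Kif23, a kinesin of dividing cells, rose in microglia-marked barcodes from 1.33 ± 0.347 CPM in Ctrl to 19.9 ± 1.99 CPM in D0 (SD, n = 3 each) and was at 117 ± 49.8 and 76.4 ± 39.4 CPM in neutrophils, a log2 difference of differences of -4.43 (SE 0.49, adjusted p = 0.00042, edgeR). Slc2a6, a sugar transporter, rose in microglia-marked barcodes from 1.54 ± 0.561 to 14.5 ± 3.63 CPM and was at 103 ± 36.1 and 80.9 ± 29.6 CPM in neutrophils. Ifi27l2a, which interferon induces, and Lmnb1, a protein of the nuclear lamina, gave differences of -4.05 and -2.44 (adjusted p = 0.0419 and 0.0485, edgeR). All 4 genes were higher in neutrophils than in microglia-marked barcodes of Ctrl, with Lmnb1 at 546 ± 151 against 9.42 ± 0.644 CPM. In the fit without a block 1201 genes were called for D0 in microglia-marked barcodes and 2 in neutrophils, whose sums rest on far fewer barcodes. The 4 calls became 0 without Ctrl-2, 1 without D0-2, 2 without D2-1 or D2-2, and 7 without D0-1. Without Ctrl-1 there were 2 calls, 1 with a higher and 1 with a lower log2 change in neutrophils.

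D2-3 had the highest share of neutrophils among kept barcodes and a lower immature-type share than the other D2 libraries, though within the range of Ctrl and D0. Of its 250 neutrophils 30.0% were immature-type, against 54.7% and 56.4% in the other D2 libraries, and only 2.80% had immature genes alone. In its immature-type neutrophils Camp, Ngp and Ltf held a median of 1.96% of UMIs, against 10.8% and 11.5% in D2-1 and D2-2. Its microglia-marked barcodes were also few, 905 of 1808 kept barcodes, and 1175 of its 3146 barcodes were above 20000 UMIs.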

How the data were processed

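The authors sequenced CD11b+ sorted brain cells on the 10x Genomics platform and deposited, for each of 9 libraries, UMI counts per gene and barcode that they had made with Cell Ranger on mm10. The submitters' processing notes name version 3.1.0; in the file headers it is 3.0.2 for 6 libraries, and 3.1.0 for D2-3, Ctrl-2 and Ctrl-3. The counts were not normalized or filtered further. Libraries summed to between 20257894 and 61230741 UMIs.

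Barcodes were filtered and chosen as the report states, with python 3.11.15. No doublets were removed. Monocyte-marked barcodes had at least 2 UMIs of Ly6c2 and at least 2 other monocyte genes, and lymphoid-marked ones at least 3 lymphoid genes. Of the kept barcodes 237 (0.778%) shared a sequence with a barcode of another library, 12 of them neutrophils. UMIs were summed per library and tested with edgeR 4.0.16 (R 4.3.3; TMM, filterByExpr, quasi-likelihood test, Benjamini-Hochberg, called at an adjusted p under 0.05); for shares, exact permutation tests (two-sided) over libraries were used. Ratios of levels used a pseudocount of 10 CPM. In data simulated for D0 against Ctrl, 101 of 200 genes changed 4-fold were recovered among 4403 genes, with no false call. Named genes are the 11 genes of the rule, up to 4 most abundant members of a list, called genes with at least 50 CPM and no overlap, and the leading genes; others were chosen after their values were seen. The members, lists and tests were chosen with earlier results of these data known. Gene positions are from GENCODE (30934 of 31053 genes matched by identifier) and promoters from RefSeq GRCm38.p6. Alternatives were DESeq2 1.42.0, other scaling and filters, other limits for barcodes, each library left out, D2-3 included and the replicate number as a block. Nothing states that libraries of a group were processed apart, so p-values measure the spread between these libraries. Aldoa and Clec7a of the lists were not analysed here. Some genes of the lists are not reported here.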

Additional observations from a re-analysis of the deposited data

Results flagged for a closer look

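Several values came from barcodes or libraries outside the main comparisons and were above the level of the Ctrl libraries. Neutrophils were 13.8% of kept barcodes in D2-3, against at most 3.14% in Ctrl. Barcodes over 20000 UMIs that met the neutrophil rule were 11.3% of all neutrophil barcodes in D0-2, 5.45% in D2-2, 3.85% in D2-3 and 3.43% in D0-3, against at most 3.03% in Ctrl, a value that rests on 1 barcode of Ctrl-3, so that the last of these are not shown to differ from it. In D0-1, 18 barcodes with the S100a8 and S100a9 share but without 2 of the 9 genes carried at least 2 primary granule genes; the 21 barcodes of D0-1 that failed the second condition held 93 UMIs of Elane, 90 of Prtn3, 28 of Mpo and 25 of Ctsg and none of Camp, Ngp or Ltf, had a median of 862 UMIs, and held a median of 2.18% microglia markers.

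For 4 genes the change from Ctrl to D0 differed between neutrophils and microglia-marked barcodes by the interaction test in edgeR without a library block. They were Kif23 (log2 difference of differences of -4.43), Ifi27l2a (-4.05), Slc2a6 (-3.54) and Lmnb1 (-2.44).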

How the results depend on the processing

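The numbers of genes called in neutrophils depended on the settings. For D0 against Ctrl (2 genes) DESeq2 called 8, no filter on low counts gave 118, removing immature-type barcodes gave 9 (which drops Ctrl-3), D2-3 included gave 1, and the S100 limit of 5%, the 2 groups alone, the replicate block and the removal of barcodes with 1% microglia markers each gave 0. For D2 against Ctrl (4 genes) these gave 72, 314, 1, 13, 1, 0, 0 and 0, and no upper UMI limit gave 86. For D2 against D0 (0 genes) only no filter on low counts differed, with 38. Leaving out 1 library gave 0 to 66, 0 to 342 and 0 to 0 genes, the most without Ctrl-3 and 0 and 1 without Ctrl-2. In the fits without Ctrl-2 or Ctrl-3, in that giving 9 and 1 genes without immature-type barcodes and in that of immature-type barcodes alone, Ctrl has 1 library, which is assumed to vary like the other groups. Alternatives chosen after seeing the data gave 0 and 0 genes with Ctrl-1, also with Cell Ranger version as a term and with D2-3; 1 and 0 without immature-type barcodes at 10 barcodes or more (0 and 0 with D2-3); and 1 and 1 in immature-type barcodes alone. Without Ctrl-1 the version could not be fitted, since both Ctrl libraries then have 3.1.0 and all others 3.0.2, and version and Ctrl cannot be told apart. With it, Olfm4 in D0 (log2 -0.65), P2ry12 (7.08) and Ltc4s (5.82) in D2 reversed, with adjusted p of 0.717, 0.625 and 0.702 in edgeR. Deviations from group means of libraries with the same number correlated between -0.455 and 0.162, below 0.1 in all but 1 of 5 pairs. Ctrl and D2 have 2 libraries each in this set, whose deviations mirror each other. These correlations therefore cannot decide whether the numbers pair the libraries. The block changed the share of kept barcodes in D2 against Ctrl to 2.59 points. The interaction gave 83 genes with the library as a block, 7 without barcodes of 1% microglia markers and 0 to 7 with 1 library left out (0 without Ctrl-2).

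The tests of shares cannot give a p below 0.1 with these libraries. The difference of neutrophil share between D2 and D0 (-2.07 points) reversed to 1.10 with D2-3 and ranged from -4.21 to 0.0604 with 1 library left out, and that of the immature-type share between D0 and Ctrl from -4.67 (without Ctrl-2) to 18.8, with -4.12 without D0-2. Other directions of the shares held in each setting. The 13 and 32 neutrophils of Ctrl-1 and Ctrl-3 limit every comparison with Ctrl.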
